A study of Mus musculus with 7 samples.

Results

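RNA levels of 51 genes of transforming growth factor beta (TGF-beta) and bone morphogenetic protein (BMP) signalling were compared between follicular dendritic cells (FDCs) of wild-type (WT) mice and of mice lacking Ngfr (Ngfr KO). The members were chosen by gene symbol, as ligands, receptors, antagonists, Smads and Id genes of the pathway, and 50 of the 51 were found among the 21176 genes of the table. Nog was not analysed here. FDCs are stromal cells that display antigen to B cells in lymphoid follicles. Per the labels, the donors were male mice of 8 to 12 weeks that had not been immunized, and the cells were sorted from the popliteal node. There were 4 WT and 3 Ngfr KO samples, each pooled over several animals. The labels give the WT and Ngfr KO genotypes without the allele or the strain. The p-values measure the spread between these pools.

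TGF-beta and BMP ligands are secreted dimers that bind pairs of type I and type II serine/threonine kinase receptors. The activated receptors phosphorylate receptor Smads, which join Smad4 and enter the nucleus. TGF-beta acts mainly through Smad2 and Smad3 and is held in the matrix in a latent complex with latent TGF-beta binding proteins, while BMPs act mainly through Smad1, Smad5 and Smad9 and induce the Id genes. In lymph nodes, both ligand families are known to act on stromal, endothelial and immune cells.

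Of the 43 members tested, 13 fell and 2 rose in Ngfr KO (34.9% called, beside 22.2% of all genes tested). The ligands Tgfb1 and Tgfb3, the receptors Tgfbr2 and Tgfbr3, the latent TGF-beta binding proteins Ltbp1, Ltbp2 and Ltbp4 and the common Smad, Smad4, all fell, while Tgfb2, Tgfbr1, Ltbp3, Smad2, Smad3 and Smad7 were not called. The BMP-family ligand Gdf10 had the largest log2 change of the tested members and a mean 6.02-fold lower than in WT. In the other direction, the BMP target Id1 and the activin subunit gene Inhbb rose, to means 2.57-fold and 2.53-fold higher. In the same libraries 13 of 15 tested blood endothelial markers were called lower, and their part in these differences was not tested.

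Of the 50 members in the table, 43 reached a value of 0.1 in 3 or more libraries and were tested. The value is the authors' normalised read count per gene, in which 0.1 is worth 23.0 to 29.5 reads depending on the library. With limma across all 14592 genes tested, 15 members had a Benjamini-Hochberg adjusted p under 0.05, 2 of them higher and 13 lower in Ngfr KO. By direction, 30.2% of the members tested were called lower and 4.65% higher, where the shares over all genes tested were 11.3% and 11.0%. With median ratio scaling in place of the authors' scaling, 4 members were called higher and 13 lower. The median log2 change was -0.57 over the tested members and -0.04 over all genes tested. All fits used log2(value + 0.1), and adding 0.1 shrinks the estimates of the lowest genes most. Because these are bulk samples, fewer cells of a type and less RNA per cell cannot be told apart.

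**Figure D1:**
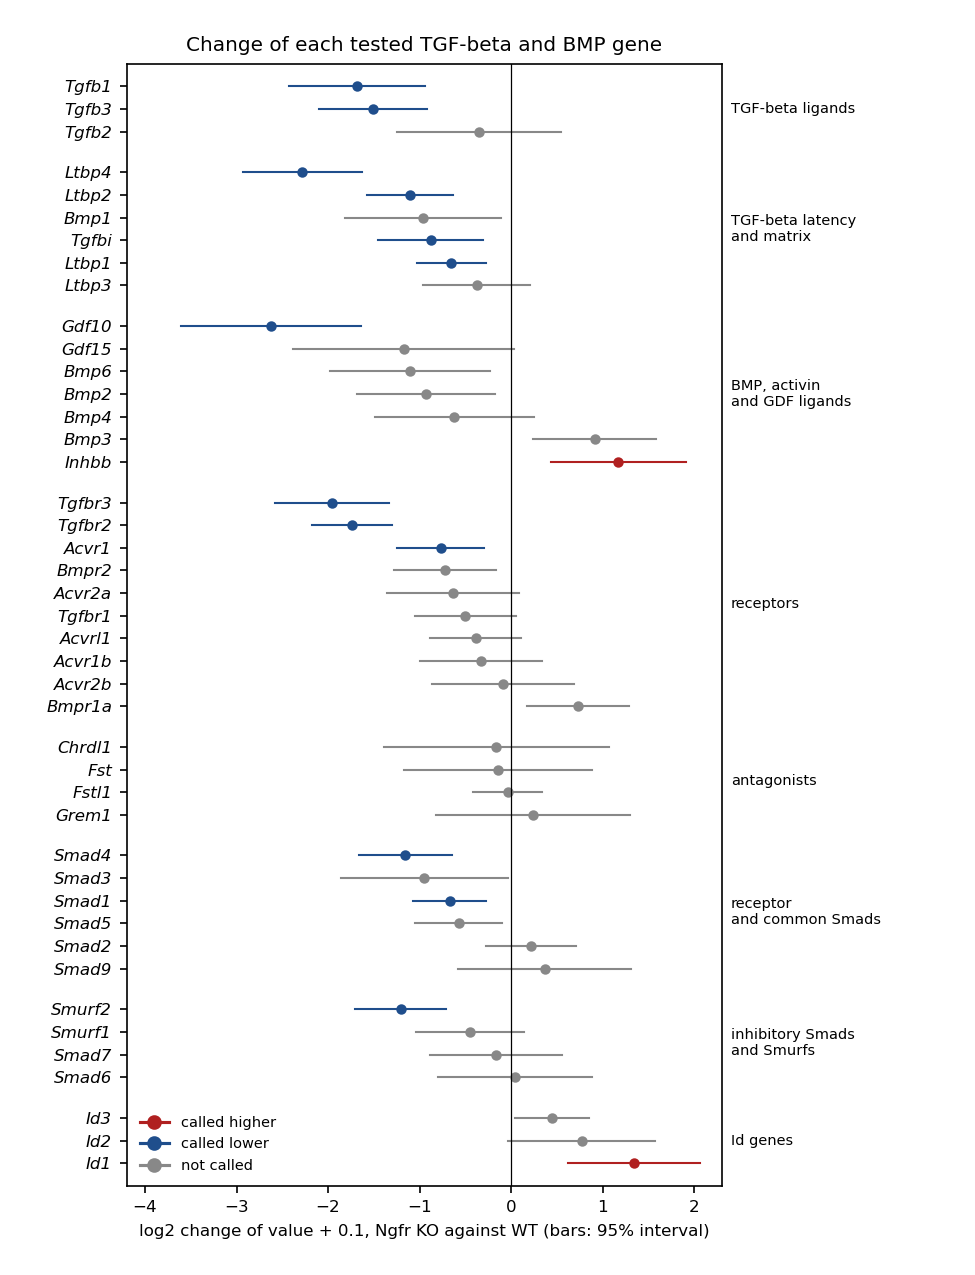
Log2 change of value + 0.1 in Ngfr KO (n = 3) against WT (n = 4) for each of the 43 tested TGF-beta and BMP genes, grouped by role; points are limma estimates and bars their 95% intervals. The 13 genes called lower lie between -2.63 (Gdf10) and -0.65 (Ltbp1), and the 2 called higher are Id1 at 1.34 and Inhbb at 1.17.

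The libraries held 17244925 to 18873542 reads in WT and 20741770 to 21538400 in Ngfr KO, so every Ngfr KO library was the deeper one. Ngfr itself (chromosome 11, 95568818 to 95587735) ranged from 0.377 to 1.30 in WT and from 0.184 to 0.353 in Ngfr KO. With limma its log2 change was -1.26 (SE 0.40, adjusted p = 0.0394). The Ngfr KO libraries still held 46 to 104 reads of Ngfr, whose exons a table per gene does not tell apart. Markers of the labelled cell type were present. The summed value of 18 FDC markers was 1850 to 5170 in WT against 8045 to 10564 in Ngfr KO. Of these markers, 14 were called higher. Most of the sum in every library was Cxcl13 and Clu, neither of which was called (limma adjusted p = 0.367 and 0.0600). Blood endothelial markers moved the other way. Their summed value over 16 genes, among them Pecam1, Cdh5 and Kdr, was 162 to 210 in WT against 37.4 to 68.8 in Ngfr KO, and 13 of the 15 tested were called lower. The sum of 6 lymphatic endothelial markers was 77.9 to 132 in WT against 25.5 to 57.7 in Ngfr KO, with 3 called lower. That of 10 myeloid markers was 4.51 to 12.0 and 13.1 to 50.3. Of the 8 myeloid markers tested, 2 were called higher and 1 lower. Sums of B-cell, T-cell, reticular stroma and pericyte markers overlapped between genotypes. Of the pericyte and smooth muscle markers, 3 of 6 tested were called higher (Des, Kcnj8 and Myh11), as was 1 of 8 reticular stroma markers (Ccl19). Of 9 T-cell markers 1 was called lower (Thy1), and of 8 B-cell markers none was called by limma (1 at an unadjusted p under 0.05) or by edgeR. Over all genes tested, 11.0% were called higher and 11.3% lower. The 1 call of 8 in reticular stroma and 1 of 9 in T cells lie near these shares. TGF-beta and BMP genes are also known to be active in endothelium, and the part of these marker differences in the results that follow was not tested. Across the 43 tested members the log2 change ran weakly against exon length (Spearman's rho -0.19), as it did across 14566 tested genes with a known length (-0.15), which share these 7 libraries.

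**Figure D2:**
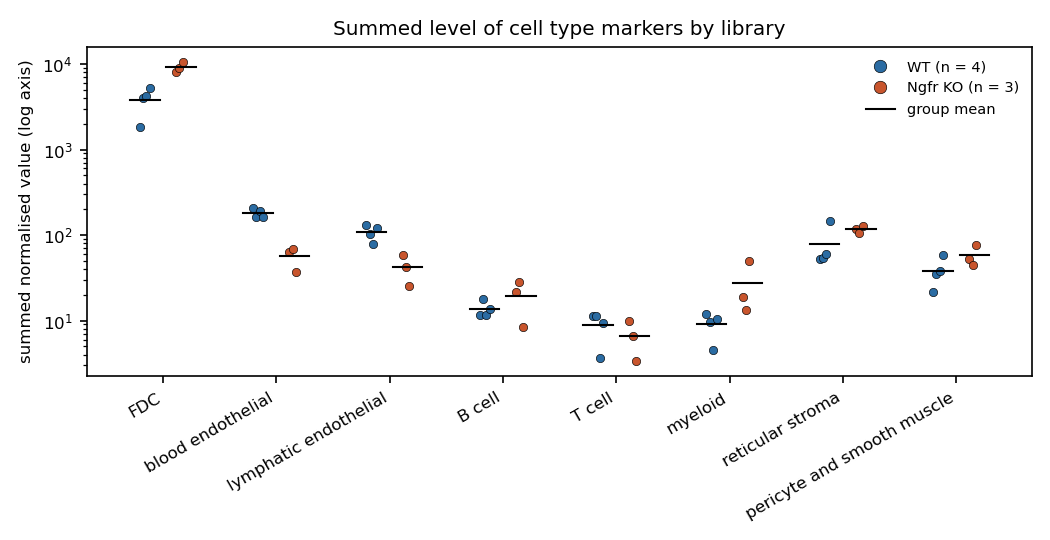
Summed normalised value (log axis) of the markers of each cell type in each library; points are libraries and lines group means. The FDC sum, most of it Cxcl13 and Clu, is higher in all 3 Ngfr KO libraries (8045 to 10564) than in the 4 WT libraries (1850 to 5170). Both endothelial sums are lower in all 3 Ngfr KO libraries.

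Promoter sequence is shown for 5 of the members that changed, to let the stretch just before the start be read beside the direction of change: Inhbb, which rose, and Tgfb1, Tgfbr2, Ltbp4 and Smurf2, which fell. Each is the 250 bases before the RefSeq start (GRCm38.p6), 5′ to 3′ on the gene's strand, and capitals mark the 4-letter Smad box (GTCT or AGAC) and the GC-rich Smad element GGCGCC. Their positions are chr1:119422249-119422498 (minus strand) for Inhbb, chr7:25686752-25687001 (plus strand) for Tgfb1, chr9:116175364-116175613 (minus strand) for Tgfbr2, chr7:27337613-27337862 (minus strand) for Ltbp4 and chr11:106920716-106920965 (minus strand) for Smurf2.
Inhbb: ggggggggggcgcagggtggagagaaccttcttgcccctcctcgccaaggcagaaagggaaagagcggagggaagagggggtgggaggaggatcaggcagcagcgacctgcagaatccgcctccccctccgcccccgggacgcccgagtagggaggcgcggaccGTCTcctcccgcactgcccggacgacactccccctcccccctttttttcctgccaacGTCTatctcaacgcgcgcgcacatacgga
Tgfb1: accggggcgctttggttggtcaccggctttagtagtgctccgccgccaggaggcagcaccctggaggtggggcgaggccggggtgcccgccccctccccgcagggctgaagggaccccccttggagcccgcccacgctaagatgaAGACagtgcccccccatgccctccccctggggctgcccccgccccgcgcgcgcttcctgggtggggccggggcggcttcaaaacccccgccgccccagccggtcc
Tgfbr2: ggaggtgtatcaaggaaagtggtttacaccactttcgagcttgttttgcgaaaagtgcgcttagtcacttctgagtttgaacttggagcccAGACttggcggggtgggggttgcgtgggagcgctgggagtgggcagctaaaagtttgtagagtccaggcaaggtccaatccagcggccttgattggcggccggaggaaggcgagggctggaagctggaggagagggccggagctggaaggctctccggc
Ltbp4: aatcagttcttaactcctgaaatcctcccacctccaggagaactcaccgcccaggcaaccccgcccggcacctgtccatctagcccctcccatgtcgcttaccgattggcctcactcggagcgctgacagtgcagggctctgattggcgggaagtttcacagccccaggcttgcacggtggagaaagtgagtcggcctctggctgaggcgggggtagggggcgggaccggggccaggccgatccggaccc
Smurf2: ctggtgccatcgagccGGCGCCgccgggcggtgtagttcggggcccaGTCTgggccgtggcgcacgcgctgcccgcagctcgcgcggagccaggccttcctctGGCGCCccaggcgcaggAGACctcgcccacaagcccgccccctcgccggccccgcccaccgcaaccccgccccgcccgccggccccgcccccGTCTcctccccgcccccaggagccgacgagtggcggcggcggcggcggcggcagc
Searched on both strands, the Smurf2 window held 3 Smad boxes and 2 GGCGCC elements, the Inhbb window 2 Smad boxes, the Tgfb1 and Tgfbr2 windows 1 each and the Ltbp4 window none of either motif. A Smad box stood in 31 of the 37 members' windows read (83.8%), near the 82.9% of all 32851 windows of this length. GGCGCC stood in 9 of the 37 (24.3%), against 9.59% of all windows. The E-box CANNTG, also searched but not marked above, stood in 12 of the 37 (32.4%), against 66.2% of all windows. Each member gave 1 window, the nearest to its annotated start (187161 bases away for Bmpr1b), while all windows were not reduced to 1 per gene. The members' windows were richer in G and C, with a median of 68.0% against 52.4%. Each motif was found in windows of members that fell and of members that did not pass the test, and a match is a description of letters only.

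Of the TGF-beta ligands, 2 of the 3 fell (66.7% called, beside 22.2% of all genes tested). Tgfb1 (chromosome 7, 25687002 to 25705077) encodes the ligand best known for restraining lymphocytes. Its values were 1.01, 0.921, 1.00 and 0.828 in WT replicates 1 to 4 and 0.152, 0.146 and 0.440 in Ngfr KO replicates 1 to 3. Every Ngfr KO library was below every WT library, and replicate 3 was the highest of the Ngfr KO libraries. The log2 change in limma was -1.69 (SE 0.34, adjusted p = 0.00556). Tgfb3 (chromosome 12, 86056745 to 86079041), a second ligand of the same receptors, had values of 1.67, 1.24, 1.33 and 1.63 in WT and 0.584, 0.356 and 0.420 in Ngfr KO. Here too no libraries overlapped, and the log2 change in limma was -1.51 (SE 0.27, adjusted p = 0.00314). Tgfb2 spanned 0.419 to 0.736 in WT against 0.168 to 0.862 in Ngfr KO. The groups overlapped and Tgfb2 was not called, with an interval of the log2 change from -1.25 to 0.54. All 3 ligands were low, with 42 to 430 reads per library. In 33.2% of all genes tested the groups did not overlap, as in 18 of the 43 members tested (41.9%). Of these 18, 1 (Bmp6) passed the filter through WT libraries only.

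Of the genes of latency and matrix storage, 4 of 6 fell (66.7% called, beside 22.2% of all genes tested). The latent TGF-beta binding proteins tie the inactive ligand complex to matrix fibres. Ltbp4 (chromosome 7, 27305136 to 27337692) had values of 7.48, 4.97, 9.23 and 8.78 in WT replicates 1 to 4. In Ngfr KO replicates 1 to 3 the Ltbp4 values were 1.59, 2.18 and 0.861. The highest Ngfr KO library lay under the lowest WT library by more than 2-fold, and the mean was 4.93-fold lower (log2 change -2.28, SE 0.30, limma adjusted p = 8.46e-04). Ltbp2 (chromosome 12, 84783212 to 84876532), a matrix protein of the same family, had values of 23.4, 19.9, 12.2 and 17.4 in WT and 8.27, 7.99 and 8.24 in Ngfr KO. The 3 Ngfr KO libraries were nearly equal and all below WT, and the log2 change in limma was -1.11 (SE 0.22, adjusted p = 0.00467). Ltbp1 (chromosome 17, 75005568 to 75392512) showed a smaller difference, with values of 7.39, 8.73, 10.3 and 8.86 against 5.40, 5.63 and 5.60. Its log2 change in limma was -0.65 (SE 0.18, adjusted p = 0.0210). This call was lost when each library's trend with exon length was removed (-0.36, limma adjusted p = 0.203), with robust eBayes without a trend (0.0604) and in 3 of the 7 fits that left out 1 library (WT replicate 2, Ngfr KO replicates 1 and 2, up to 0.0775), within a range of 0.00806 to 0.203 over all its alternatives.

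Tgfbi (chromosome 13, 56609523 to 56639562), a matrix protein named for its induction by TGF-beta, was the called member whose groups overlapped. Its values were 12.8, 11.0, 7.70 and 8.55 in WT and 4.12, 8.37 and 4.28 in Ngfr KO, and Ngfr KO replicate 2 lay within the WT range. The log2 change in limma was -0.88 (SE 0.27, adjusted p = 0.0337), and edgeR on the recovered reads gave an adjusted p of 0.117. Adjusted p-values of Tgfbi ran from 0.0101 to 0.135 over the alternatives. The call was also lost with DESeq2, without a filter on low values and with robust eBayes without a trend. Leaving out WT replicate 1 or 2 or Ngfr KO replicate 1 or 3 lost it too. Bmp1, a protease that processes collagens and BMP antagonists, ranged from 0.550 to 0.992 in WT and from 0.166 to 0.705 in Ngfr KO and was not called (limma adjusted p = 0.0957). Ltbp3, with 1.15 to 2.23 and 1.04 to 1.47, was not called either.

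**Figure D3:**
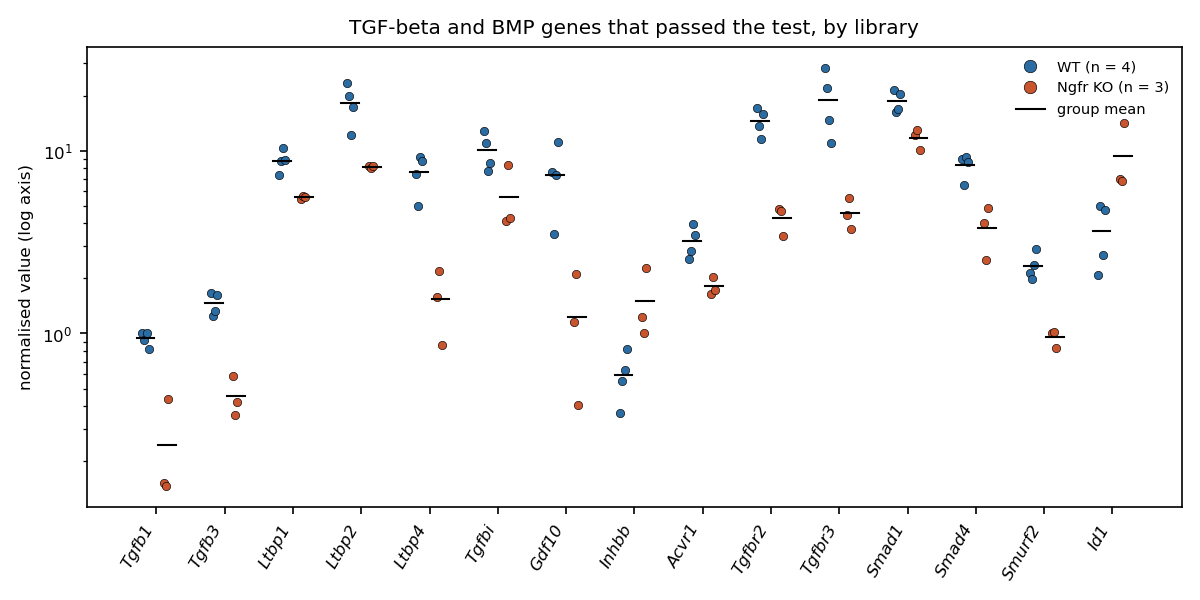
Normalised value (log axis) in each library of the 15 TGF-beta and BMP genes called in the comparison; points are libraries and lines group means. In 14 of the 15 the WT and Ngfr KO points do not overlap, as in 3071 of the 3244 genes called over the whole table. In Tgfbi the Ngfr KO replicate 2 value of 8.37 lies within the WT range.

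Among the receptors, 3 of the 10 tested fell and none was called higher (30% called, beside 22.2% of all genes tested). Tgfbr2 (chromosome 9, 116084293 to 116175360) encodes the type II receptor that binds TGF-beta first. Values were 17.2, 13.6, 11.5 and 15.8 in WT and 4.78, 4.70 and 3.41 in Ngfr KO. The groups stood far apart, and the log2 change in limma was -1.74 (SE 0.20, adjusted p = 6.66e-04). Tgfbr3 (chromosome 5, 107106570 to 107289629) encodes betaglycan, a co-receptor that presents TGF-beta2 and also binds inhibin. Its WT values were spread, at 28.3, 22.0, 14.8 and 11.0, and its Ngfr KO values were 4.44, 5.53 and 3.74. The lowest WT library was still above the highest Ngfr KO library, and the log2 change in limma was -1.96 (SE 0.29, adjusted p = 0.00127). Tgfbr1, the type I partner, had values of 8.55, 6.996, 3.79 and 5.72 in WT and 3.59, 4.23 and 4.96 in Ngfr KO. The groups overlapped and Tgfbr1 was not called, with an interval from -1.05 to 0.06. Whether Tgfbr1 differed less than Tgfbr2 was not tested.

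Among the BMP and activin receptors tested, Acvr1 was the only one called. Acvr1 (chromosome 2, 58388644 to 58567157), a type I BMP receptor, had values of 2.54, 2.81, 3.95 and 3.44 in WT and 1.65, 2.04 and 1.74 in Ngfr KO. All Ngfr KO libraries were lower, and the log2 change in limma was -0.77 (SE 0.22, adjusted p = 0.0262). Over the alternatives its adjusted p ran from 0.0174 to 0.0943, and it was 0.0501 with edgeR. The call was also lost with the replicate number as a block and without WT replicate 4 or Ngfr KO replicate 1 or 3. Bmpr1a, the widely expressed type I BMP receptor, was one of the members that leaned the other way without passing the test, at 1.36, 2.52, 2.49 and 2.97 in WT and 4.27, 3.41 and 3.79 in Ngfr KO. Its groups did not overlap, and its interval ran from 0.18 to 1.29 (limma adjusted p = 0.0579). Bmpr2, the type II BMP receptor, ranged from 5.04 to 10.1 in WT and from 3.19 to 5.31 in Ngfr KO (limma adjusted p = 0.0608). Acvrl1, an endothelial type I receptor also called ALK1, had 1.37 to 1.74 and 1.09 to 1.38, with groups that overlapped (interval -0.88 to 0.11). Acvr1b, Acvr2a and Acvr2b, which carry activin signals, had values of 0.617 to 1.40, 0.468 to 1.68 and 0.111 to 0.335 over the 7 libraries. None of the 3 was called (limma adjusted p = 0.460, 0.185 and 0.879), and exons of Acvr2a overlap those of Orc4 on the other strand. Bmpr1b, at 0 to 0.0725, was too low to test.

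Of 10 BMP, activin and growth differentiation factor ligands, 7 were tested, 1 rose and 1 fell (28.6% called, beside 22.2% of all genes tested). Gdf10 (chromosome 14, 33923587 to 33937983), also named BMP3b, had values of 7.59, 3.496, 7.38 and 11.1 in WT replicates 1 to 4 and 1.15, 2.13 and 0.408 in Ngfr KO replicates 1 to 3. No libraries overlapped, and the log2 change in limma was -2.63 (SE 0.45, adjusted p = 0.00261). Inhbb (chromosome 1, 119415465 to 119422248), which encodes the beta B subunit of activin B, had values of 0.370, 0.550, 0.635 and 0.820 in WT and 1.23, 1.01 and 2.27 in Ngfr KO. Every Ngfr KO library was higher, replicate 3 most, and the log2 change in limma was 1.17 (SE 0.34, adjusted p = 0.0289). Its adjusted p ran from 0.00468 to 0.109 over the alternatives, and the call was lost without a filter on low values and without WT replicate 1 or 2 or Ngfr KO replicate 1 or 3.

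Bmp2 was the ligand with the highest level per length among the members. Its values were 24.5, 13.3, 22.5 and 21.7 in WT and 6.88, 7.73 and 21.3 in Ngfr KO. Of the Ngfr KO libraries, replicates 1 and 2 lay below all WT libraries and replicate 3 lay inside their range, so Bmp2 was not called (log2 change -0.93, SE 0.35, limma adjusted p = 0.0720). Without Ngfr KO replicate 3 the adjusted p was 0.00468, the lowest over its alternatives, which reached 0.264. Bmp3, an antagonistic member of the family, had values of 0.771, 1.36, 1.38 and 2.28 in WT and 2.17, 2.78 and 3.05 in Ngfr KO. The groups overlapped in 1 library of each, and the limma adjusted p was 0.0512, with a range of 0.00927 to 0.142 over the alternatives and 9 of its 20 alternatives calling it higher. Bmp4, a BMP ligand of the same subgroup as Bmp2, was at 1.93, 1.61, 2.34 and 0.763 in WT and 1.60, 1.06 and 0.521 in Ngfr KO. The groups overlapped and Bmp4 was not called. Gdf15, a stress-induced cytokine, was at 3.37, 2.14, 4.23 and 0.465 in WT and 0.588, 1.16 and 0.821 in Ngfr KO. WT replicate 4 was the lowest of all 7 libraries, and Gdf15 was not called (limma adjusted p = 0.145).

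The remaining ligands were close to the limit of detection. Bmp6, known in liver endothelium as the inducer of hepcidin, had values of 0.393, 0.191, 0.0913 and 0.133 in WT. In Ngfr KO its values were 0.0326, 0.0712 and 0 (limma adjusted p = 0.0661). Bmp6 reached the filter value in 3 WT libraries and 0 Ngfr KO libraries, so it was tested only through the group where it was higher. Its exons overlap those of Txndc5 on the other strand, which had values of 2.78 to 5.52, and without strand the reads of the 2 genes cannot be told apart. Bmp7 had 38, 31, 14 and 2 reads in WT and none in any Ngfr KO library. Against a floor of 3 reads in each Ngfr KO library, its mean was at least 7.54-fold lower, which covers counting error only. WT replicate 4, with 2 reads, was itself under that floor. Bmp7 did not reach the filter. It entered the edgeR test only through its WT reads, and edgeR gave an adjusted p of 0.0345. Because the group with more reads admitted it, that value is no support for a difference. Bmp5 and Inhba stayed at or under 0.136 and 0.115 in every library and were not tested.

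The secreted antagonists, which bind BMPs or activins outside the cell, gave no call among the 4 tested, by limma (0 at an unadjusted p under 0.05) or by edgeR. Fstl1, a matrix glycoprotein of the follistatin family, was by far the most abundant of them per length. It had values of 23.9, 22.2, 24.1 and 25.4 in WT and 25.0, 20.03 and 25.2 in Ngfr KO. The groups overlapped, with Ngfr KO replicate 2 the lowest library, and the interval of the log2 change was -0.41 to 0.34. Grem1, Chrdl1 and Fst had values of at most 0.392 in any library and wide intervals of the log2 change, -0.82 to 1.30, -1.39 to 1.07 and -1.17 to 0.88. WT replicate 3 had no read of Grem1 or Chrdl1. Fstl3, an activin and myostatin binder, was under the filter, with 4 reads in WT replicate 2, none in the other WT libraries and 28, 83 and 6 reads in Ngfr KO. Its exons overlap those of Prss57 on the other strand. Bmper, at 0 to 0.0786, was not tested.

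Of the receptor and common Smads, 2 of 6 fell (33.3% called, beside 22.2% of all genes tested). Smad4 (chromosome 18, 73639009 to 73703780), the partner shared by both branches, had values of 9.01, 6.48, 9.21 and 8.65 in WT and 4.01, 2.52 and 4.83 in Ngfr KO. All Ngfr KO libraries were lower than all WT libraries, and the log2 change in limma was -1.15 (SE 0.23, adjusted p = 0.00550). Smad1 (chromosome 8, 79338395 to 79399518), a BMP-activated Smad, had values of 21.4, 16.3, 16.9 and 20.3 in WT and 12.1, 12.98 and 10.1 in Ngfr KO. The difference was smaller but the groups did not overlap (log2 change -0.67, SE 0.18, limma adjusted p = 0.0217). edgeR gave an adjusted p of 0.0628 for Smad1 within a range of 0.0122 to 0.0643 over the alternatives. The call was also lost with robust eBayes without a trend, with the replicate number as a block and without WT replicate 1 or Ngfr KO replicate 1. Smad5, the second BMP-activated Smad, had values of 6.95, 5.03, 4.56 and 5.53 against 4.24, 4.09 and 2.75 and was not called (limma adjusted p = 0.0763), although its groups did not overlap. Smad2, which carries TGF-beta and activin signals, had 2.10 to 2.72 in WT against 2.35 to 3.98 in Ngfr KO (interval -0.28 to 0.70). Smad3, of the same branch, had 0.252 to 1.28 and 0.220 to 0.305, and Smad9 at most 0.168. Neither was called.

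Negative regulators were represented by 4 genes, of which 1 fell (25% called, near the 22.2% of all genes tested). Smurf2 (chromosome 11, 106820066 to 106920715), a ubiquitin ligase that marks Smads and TGF-beta receptors for degradation, had values of 2.15, 1.98, 2.38 and 2.89 in WT and 1.01, 1.02 and 0.833 in Ngfr KO. The groups were clearly apart, and the log2 change in limma was -1.21 (SE 0.23, adjusted p = 0.00410). Smurf1, its relative, had 1.66 to 2.28 in WT against 0.903 to 1.92 in Ngfr KO and was not called. Smad6 and Smad7, inhibitory Smads that are themselves induced by BMP and TGF-beta, had overlapping groups. Smad7 was at 0.467 to 0.816 in WT against 0.424 to 0.893 in Ngfr KO (interval -0.88 to 0.56), and Smad6 at 0.204 to 0.740 and 0.312 to 0.406 (interval -0.80 to 0.88).

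Of the Id genes, inhibitors of basic helix-loop-helix factors and classical BMP targets, 1 of the 3 tested rose. That is 33.3% called, beside 22.2% of all genes tested. Id1 (chromosome 2, 152736251 to 152737410) had values of 2.09, 4.95, 2.68 and 4.76 in WT replicates 1 to 4 and 7.04, 6.80 and 14.1 in Ngfr KO replicates 1 to 3. Every Ngfr KO library was above every WT library, with replicate 3 the highest. The log2 change in limma was 1.34 (SE 0.33, adjusted p = 0.0139), and without Ngfr KO replicate 3 it was 1.01 with an adjusted p of 0.0541, the highest over its alternatives (from 0.00129). Id3 had values of 13.2, 16.6, 16.6 and 13.2 in WT and 18.6, 18.6 and 23.9 in Ngfr KO. No libraries overlapped, but the difference was not called (interval 0.05 to 0.85, limma adjusted p = 0.0984). Id2, which has further roles in innate lymphoid and dendritic cells, had values of 19.8, 13.6, 33.4 and 21.3 in WT and 31.0, 21.2 and 69.8 in Ngfr KO. Ngfr KO replicate 3 was the highest library for all of Id1, Id2 and Id3, and Id2 was not called (interval -0.03 to 1.58, limma adjusted p = 0.150). Id4 stayed at or below 0.163 and was not tested.

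**Figure D4:**
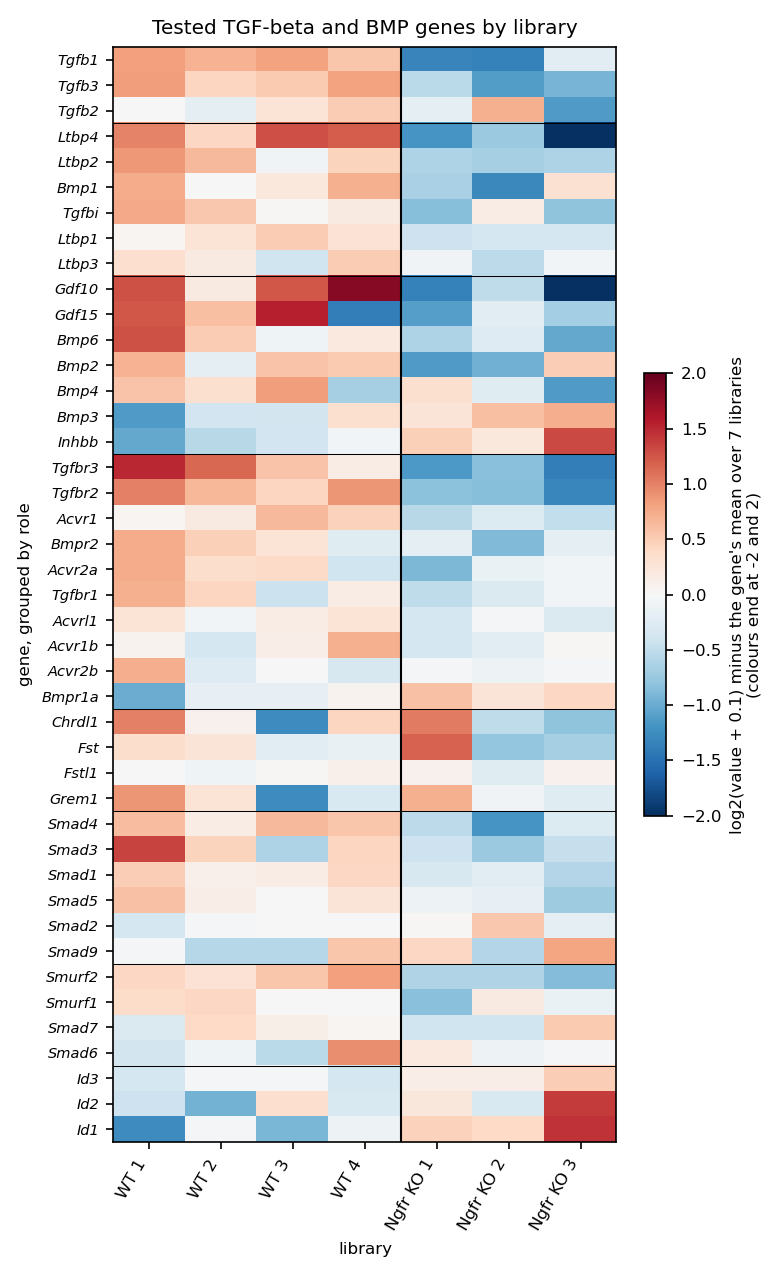
Log2(value + 0.1) of the 43 tested members in each library minus the gene's mean over the 7 libraries, as colour, with genes grouped by role and a line between WT and Ngfr KO. Most ligand, latency, receptor and Smad rows are red in WT and blue in Ngfr KO, the Id1 row is the reverse, and Ngfr KO replicate 3 has the strongest colours of the Id rows.

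Levels of different genes were compared per length, as the value divided by kilobases of annotated exon. Id2 was the highest member in both genotypes, with a WT mean of 9.04 ± 3.41 per kb (SD, n = 4) and a Ngfr KO mean of 16.7 ± 10.5 (SD, n = 3). Id3 came next, at 8.33 ± 1.09 and 11.4 ± 1.7, and these neighbours did not differ beyond their spread. In WT, Bmp2 (5.77 ± 1.39) and Fstl1 (4.86 ± 0.26) followed, ahead of Id1 (3.12 ± 1.25). In Ngfr KO, Id1 (8.03 ± 3.58) stood ahead of Fstl1 (4.76 ± 0.59) and Bmp2 (3.37 ± 2.28). Among the TGF-beta receptors, per kb, Tgfbr3 was at 2.91 ± 1.18 and Tgfbr2 at 1.78 ± 0.30 in WT, and at 0.698 ± 0.138 and 0.525 ± 0.094 in Ngfr KO.

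**Figure D5:**
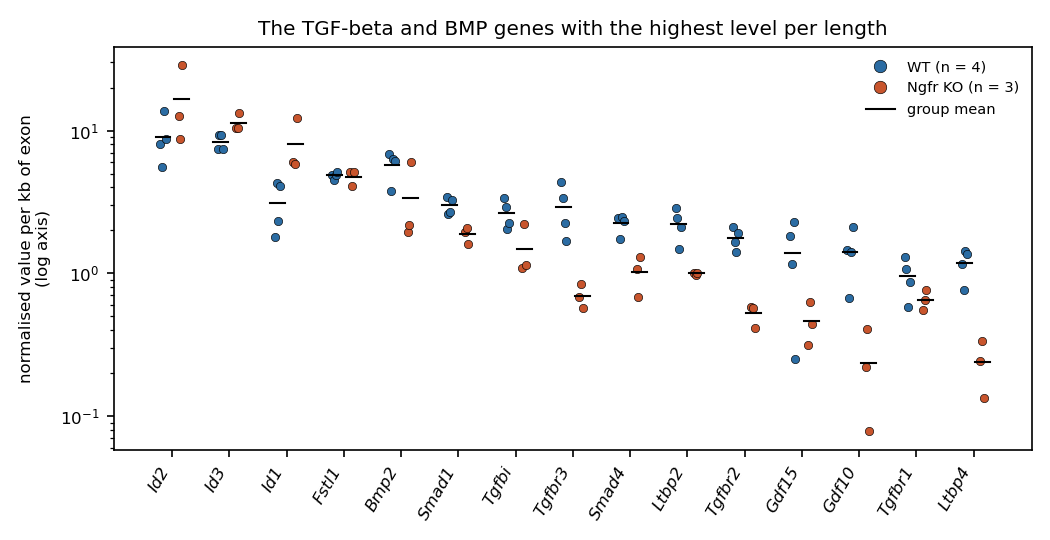
Normalised value per kb of exon (log axis) in each library for the 15 members with the highest mean level per length; points are libraries and lines group means. Id2 and Id3 are the highest in both genotypes, and Id1 ranks 5 in WT (mean 3.12) and 3 in Ngfr KO (mean 8.03).

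Other genes of the pathway were examined as a list of 99 genes that are not members. Of these, 80 were in the table and 62 were tested. The calls were 9 higher and 10 lower, or 30.6% of those tested beside the 22.2% of all genes tested, with a median log2 change of 0.04. Of 7 receptors and co-receptors tested, 2 fell and 1 rose (42.9% called, beside the same 22.2%). Lrrc32, which encodes GARP, the anchor of latent TGF-beta on cells, had a WT mean of 2.15 ± 0.56 (SD, n = 4) and a Ngfr KO mean of 0.292 ± 0.163 (SD, n = 3). Its log2 change in limma was -2.60 (SE 0.35, adjusted p = 9.46e-04). Endoglin (Eng), a co-receptor characteristic of endothelium, fell too, by a limma log2 estimate of -1.28 (SE 0.25, adjusted p = 0.00476), over the same libraries in which the blood endothelial sum was 162 to 210 and 37.4 to 68.8. Acvr1c, the type I receptor ALK7, rose instead, from 1.00 ± 0.42 to 3.10 ± 0.49 (log2 change 1.63, SE 0.34, limma adjusted p = 0.00638).

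Smad regulators were called lower in 6 of 20 tested genes (30%) and higher in 1 (5%). Over all genes tested the shares were 11.3% lower and 11.0% higher. The ubiquitin ligases Nedd4l and Wwp1, which act on Smads and receptors, had log2 changes of -1.65 and -1.36 (limma adjusted p = 0.00443 and 0.00322), and Zfp423, a zinc finger partner of BMP Smads, -1.49 (limma adjusted p = 0.00728). Ski, Ppm1a and Zeb1 were also lower. Skil, whose product SnoN represses Smad activity and which TGF-beta induces, was higher, at 3.32 to 4.81 in WT against 5.90 to 7.05 in Ngfr KO (log2 change 0.71, SE 0.19, limma adjusted p = 0.0210).

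Of 12 tested genes that TGF-beta is known to induce, 3 rose and none fell. That is 25% called, near the 22.2% of all genes tested. Snai2, a transcriptional repressor, went from 1.44 ± 0.43 to 4.40 ± 1.01 (log2 change 1.57, SE 0.28, limma adjusted p = 0.00300). The cell-cycle inhibitor Cdkn2b was also called higher. Among 4 tested BMP targets, 2 were called (50%, beside 22.2% of all genes tested). The homeobox gene Msx1 rose (log2 change 1.71, SE 0.36, limma adjusted p = 0.00699). Gata2, also an endothelial and blood factor, fell (-2.04, SE 0.31, limma adjusted p = 0.00150).

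Of 10 tested antagonists and matrix binders, 2 rose, 1 fell and 7 were not called. That is 30% called, beside 22.2% of all genes tested. Decorin (Dcn), which binds TGF-beta, had values of 37.5, 40.4, 44.9 and 69.3 in WT and 248, 151 and 195 in Ngfr KO. All Ngfr KO libraries were more than 2-fold above the highest WT library, and the log2 change in limma was 2.05 (SE 0.27, adjusted p = 8.46e-04). Htra1, a secreted protease that acts on TGF-beta family ligands, rose by a limma log2 estimate of 1.55 (SE 0.37, adjusted p = 0.0123), a call lost without Ngfr KO replicate 2 (0.0525, the highest of its alternatives, from 0.00174). Crim1, a membrane-bound BMP antagonist, fell from 5.74 ± 1.21 to 1.39 ± 0.31 (log2 change -1.97, SE 0.24, limma adjusted p = 6.82e-04). Itgav, the integrin subunit of the latent TGF-beta activating integrins, was called higher, with values of 5.83 to 8.59 in WT against 9.22 to 13.6 in Ngfr KO. None of the 4 further ligands tested was called by limma (2 at an unadjusted p under 0.05) or by edgeR.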

How the data were processed

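RNA from 7 pooled FDC samples was amplified with SMART-Seq v4 and made into libraries with Nextera XT, per the labels' protocols. The authors deposited normalised signal per gene, 1 column per sample, which the table's name calls TMM (trimmed mean of M values). The build mm10 and bcl2fastq 2.20.0.422 come from the submitters' processing notes; the aligner and counter are not given in the sources used here. In every library 100% of the values were whole multiples of 1 step (tolerance 0.01), so reads could be recovered, and a value of 1 was worth 230.1 to 294.8 reads. Gene length was not divided out. The labels do not speak of strand.

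The comparison used limma 3.58.1 in R 4.3.3 (lmFit, eBayes with trend) on log2(value + 0.1), with genes at 0.1 or more in at least 3 of 7 libraries and Benjamini-Hochberg adjustment over all genes tested. 0.1 was used because a filter and pseudocount of 1 would drop or shrink most low ligands. Groups came from the sample titles. edgeR 4.0.16 and DESeq2 1.42.0 on the recovered reads were alternatives, in which the count test calls 2551 and 4005 genes. Positions and exon lengths came from GENCODE M21 (GRCm38, of which mm10 is another name), in which 21118 identifiers matched and 58 did not. Promoter windows came from RefSeq (GRCm38.p6) for 37 members.

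Named with values are Ngfr, every member by role (per sample for the called ones and the 8 uncalled ones highest per length), and up to 6 other pathway genes called in each direction with the largest change, of which 1 is not reported here. Bmp1, Bmp3, Bmp6, Bmpr1a and Bmpr2 (adjusted p under 0.1) were given statistics, and Eng, Ski, Ppm1a, Zeb1, Skil, Cdkn2b and Itgav were named, after their values were seen. The members and lists were chosen with earlier results of these data known. In a simulation with these group sizes and 200 genes changed 4-fold, limma recovered 98% of them among 14518 genes. Of its 204 calls, 3.92% were unchanged genes. The simulation gave every gene the same dispersion (spread beyond counting error) and changed only genes above a set mean value. Its rates therefore do not cover lower genes, smaller changes or a larger share of changed genes.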

Additional observations from a re-analysis of the deposited data

Results flagged for a closer look

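Within the 4 WT libraries, 52 results (Ngfr, the tested members and the marker sums) were screened for a library far from the others by Dixon's criterion, where chance gives about 1 in 20, or 2.6, and 2 were found. Smad2 was lowest in WT replicate 1, at 2.10, where the remaining WT libraries lay between 2.66 and 2.72, a gap of 0.898 of the range. The summed value of the reticular stroma markers was highest in WT replicate 4, at 148, where the remaining WT libraries lay between 53.1 and 60.3, a gap of 0.924 of the range. Much of that gap was 1 gene, Ccl21a, which is also in the lymphatic endothelial list. Its value was 73.5 in WT replicate 4 and 16.9, 6.81 and 9.51 in WT replicates 1 to 3.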

How the results depend on the processing

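Of 15 called members, 9 were called under every alternative that tested them: Tgfb1, Tgfb3, Tgfbr2, Tgfbr3, Gdf10, Ltbp2, Ltbp4, Smad4 and Smurf2. The count of called members was 10 to 18 across the 7 fits that left out 1 library each and 12 to 20 under the other alternatives. The count of other pathway genes called was 15 to 22 and 18 to 23. Over all genes, the fits without 1 library called 1638 to 3571 genes, with the lowest counts without WT replicate 1 (2046), Ngfr KO replicate 1 (1880) or Ngfr KO replicate 2 (1638). The log2 change of Ngfr had an adjusted p above 0.05 without a filter (-1.26), with quantile normalization (-1.13), with edgeR (-1.55), with the replicate number as a block (-1.10) and in 6 of the 7 fits without 1 library (-1.56 to -1.05 over all 7). The estimate for Fstl1, not called in any fit, was above 0 with median ratio scaling (0.0094), edgeR (0.036), DESeq2 (0.034) and the length trend removed (0.0045), and ranged from -0.092 to 0.072 over the fits without 1 library. Removal of the length trend was chosen after seeing the data. Deviations of same-numbered libraries correlated at 0.23, -0.0032 and 0.033 for replicates 1 to 3. Those of libraries with different numbers correlated at -0.11 to 0.061. So few libraries cannot tell whether the numbers pair the samples, and the labels state no pairing. With the replicate block, in which WT replicate 4 stands alone, 18 members and 3231 genes in all were called. Bmp7 and Fstl3, which were not tested in limma, had at most 38 and 83 reads in any library.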
